A study of Mus musculus with 17 samples.

Results

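The 35 genes described here encode proteins of epithelial cell junctions and of apicobasal polarity, together with transcription factors, sorting proteins and membrane proteases that are typical of epithelia. They were taken by name from a list and are 35 of 53693 genes in the RNA-seq tables, with transcripts summed per gene symbol under GENCODE mouse M21. The list holds 2 adherens or adhesion genes, 13 claudin and tight junction genes, 4 polarity genes, 5 desmosome genes, 5 epithelial transcription factor genes, 2 epithelial sorting genes and 4 genes of membrane proteases and their inhibitors. All 35 passed the filter on low counts, as did 19819 genes in all. Cldn10 passed it only through the iFoxA1 libraries at 24 h.

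RNA was measured in 17 libraries made from 5 lines of mouse embryonic stem (ES) cells, named iFoxA1, iFoxC1, iFoxG1, iFoxL2 and iFoxP3. Per the labels, the parent of every line is the MC1 ES cell (strain 129S6/SvEvTac), and each line holds at Rosa26 the open reading frame of the forkhead factor in its name, tagged at the C terminus with His6-FLAG, with a puromycin resistance gene, in a construct that doxycycline (Dox) represses. Cells at 0 h were in ES medium with 15% serum, 1000 U/ml LIF, 0.2 µg/ml Dox and 1.0 µg/ml puromycin (2 libraries of iFoxA1 and 1 of each other line). Cells at 24 h had been freed of Dox by washes 3 h apart and grown in a differentiation medium with 10% serum (3 libraries of iFoxA1 and 2 of each other line), so that the transgene, the medium and the time changed together. A transgene-free line is not among these samples, and the parts of the transgene, of the medium and of time in any change cannot be told apart. Whether replicates came from separate cultures is not stated in the labels, so the p-values cover only the variation among libraries, which may be technical.

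Epithelial cells are held together by junctions stacked along their lateral membranes. Claudins and occludin seal the tight junction, cadherins anchor the adherens junction to actin, and desmosomal cadherins anchor desmosomes to intermediate filaments, while the Par, Crumbs and Scribble complexes set apart the apical and basolateral surfaces. Mouse ES cells already make E-cadherin and several claudins and have epithelial features, and the epiblast they model becomes a polarised epithelium after implantation.

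The libraries formed 2 sets by depth: 12 libraries held 17664320 to 22155274 estimated counts, and 5 libraries at 24 h (iFoxA1 replicate 3 and replicate 2 of each other line) held 32940042 to 37174560. No 0 h library was in this second, deeper set. Transgene RNA was low in 2 of its libraries: Foxa1 was at 21.8 TPM (a level scaled to transcript length and library size) in iFoxA1 replicate 3 against 131 and 137 TPM in replicates 1 and 2, and Foxl2 was at 2.85 TPM in iFoxL2 replicate 2 against 78.1 TPM in replicate 1. Both stayed above the 0 h level of their line, and the average changes of the genes that set these libraries apart are given without them further on. ES markers remained abundant as a sum over 8 genes in every library. They held 5468 to 7014 TPM at 0 h and 3493 to 5928 TPM at 24 h. Dppa5a alone held 2487 to 3987 TPM at 0 h and 1682 to 3493 TPM at 24 h. Nanog fell on average (log2 change -2.40, median 359 TPM at 0 h and 63.9 TPM at 24 h), as did Zfp42 (-1.28). Utf1 rose (1.46), and the other listed ES markers were not called. The 5 formative epiblast markers all rose at 24 h, from a summed 71.9 to 194 TPM to 277 to 761 TPM. Trophoblast markers, which include the epithelial keratins Krt8 and Krt18, summed to 35.3 to 61.0 TPM at 0 h and 56.3 to 177 TPM at 24 h, with 6 of 8 higher on average, while fibroblast markers summed to 2.56 to 14.6 TPM over all libraries. Extraembryonic endoderm markers summed to 154 and 157 TPM in iFoxA1 already at 0 h, against 10.1 to 16.8 TPM in the other lines at 0 h and 27.2 to 57.8 TPM in those lines at 24 h. On average 4 of the 10 endoderm markers rose with the junction genes and 1 fell. Within these lists Foxa2, Hand1, Col3a1, Postn, Dcn and Lum were at 0 in at least some libraries, and the part of such cells in the results below was not tested.

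The junction and polarity genes were mostly higher at 24 h. Averaged over the 5 lines with equal weight, 28 of 35 rose and 2 fell (edgeR quasi-likelihood test, Benjamini-Hochberg adjusted p under 0.05), against 21.7% of all tested genes that rose and 16.1% that fell. The members were chosen with earlier results of these data known, so the gap from all genes may be partly built in by the choice. The median change of the 35 was 0.91 on the log2 scale (0.90 over 34 genes without Cldn10, which was nearly absent at 0 h), and the median over all genes was 0.04. Every polarity gene and every epithelial transcription factor gene on the list rose, as did both adherens genes, 11 of 13 tight junction genes and 4 of 5 desmosome genes. Dsg2 and Spint1 fell, and Cldn10, Tjp3, Ap1m2, Rab25 and Spint2 did not pass the threshold. In bulk RNA, fewer cells of a type and less RNA per cell cannot be told apart.

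**Figure D1:**
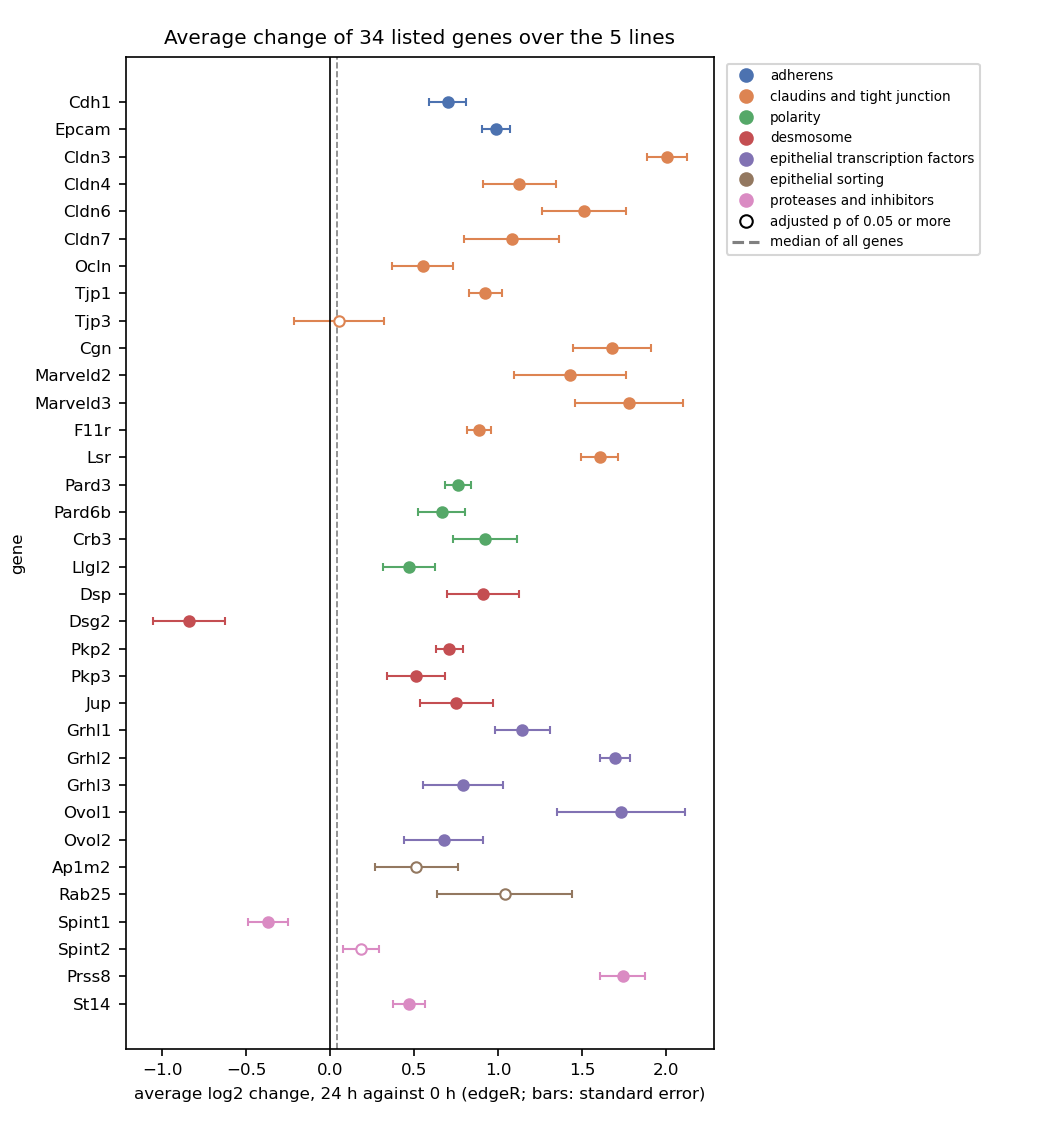
Average log2 change from 0 h to 24 h over the 5 lines (horizontal axis, edgeR estimate; bars show the standard error) for 34 of the 35 genes by class; Cldn10 is left out because it had 0 or 1 count in each 0 h library. Filled points passed an adjusted p of 0.05, and all but Dsg2, Spint1, Tjp3 and Spint2 lie above 0.4.

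The calls differed in how far they rested on single libraries. Of the 28 genes that rose, 20 were called in each of 17 fits that left out 1 library and in each of 7 other settings: Cdh1, Epcam, Cldn3, Cldn4, Cldn6, Tjp1, Cgn, Marveld2, Marveld3, F11r, Lsr, Pard3, Pard6b, Crb3, Pkp2, Grhl1, Grhl2, Ovol1, Prss8 and St14. For 10 genes every 24 h library stood above every 0 h library in CPM (counts scaled to the normalised library total, not to length), whatever the line (Cdh1, Cldn3, Cldn6, Tjp1, Cgn, F11r, Lsr, Pard3, Pkp2 and Prss8), against 4.79% of all tested genes. No listed gene had every 24 h library below every 0 h library (3.9% of all tested genes). Read in TPM, Tjp1, F11r, Lsr and Prss8 stayed without overlap, whereas Cdh1, Cldn3, Cldn6, Cgn, Pard3 and Pkp2 overlapped. Cdh1, for example, had 81.2 TPM in its lowest 24 h library and 87.8 TPM in its highest 0 h library.

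By level per length the set was dominated by a few genes at both times. The summed level of the 35 genes was 437 to 672 TPM at 0 h and 820 to 1305 TPM at 24 h, with no overlap between the times. Spint2 led at 0 h with a median of 97.4 TPM, followed by Cdh1 (77.1), Llgl2 (61.2), Epcam (52.8) and Jup (49.1). At 24 h the same 5 genes led in another order, with Cdh1 at a median of 123 TPM, Epcam at 114, Spint2 at 111, Jup at 72.1 and Llgl2 at 71.0. At the other end, Ovol1 (0.44 TPM), Marveld3 (0.47 TPM) and Cldn10 (0.11 TPM) had the lowest medians at 24 h.

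Because so many of these genes moved together, the letters of their promoters were read from RefSeq (build GRCm38.p6), from 250 bases before to 50 bases after the start. A promoter was matched for 25 of the 35 genes. The E-box CAGGTG, on either strand, is the site that the repressors of the Snail and Zeb families are known to bind in the Cdh1 promoter. It was found in 18 of the 25 (72%) and in 22.56% of 27025 genes with a promoter, and at least 2 copies were found in 13 (52.0%) and in 3.32% of all. The grainyhead motif AACNGGTT was found in 2 of the 25 (8.0%), Cgn and Rab25, and in 2.35% of all. The forkhead motif TGTTTAC was found in 0 of the 25 and in 4.05% of all. The stretches below lie upstream of the annotated RefSeq start and each holds 2 or more E-boxes or the grainyhead motif. They are examples, as Pard3, Crb3, Spint2, Cldn7 and Ocln also hold 2 or more E-boxes before a start and are not printed. Capitals mark the motif letters, read 5′ to 3′ on the strand of the gene, and CACCTG is CAGGTG on the other strand.
Pard6b, chr2:168080854-168081003, plus strand: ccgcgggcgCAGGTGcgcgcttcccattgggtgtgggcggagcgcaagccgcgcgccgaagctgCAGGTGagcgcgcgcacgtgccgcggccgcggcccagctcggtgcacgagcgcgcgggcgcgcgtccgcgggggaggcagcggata
Rab25, chr3:88548280-88548389, minus strand: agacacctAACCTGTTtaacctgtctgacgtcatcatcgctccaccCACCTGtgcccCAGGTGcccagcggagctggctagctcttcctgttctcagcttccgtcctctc
Cgn, chr3:94786483-94786542, minus strand: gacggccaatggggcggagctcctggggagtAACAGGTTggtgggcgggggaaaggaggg
Lsr, chr7:30973470-30973719, minus strand: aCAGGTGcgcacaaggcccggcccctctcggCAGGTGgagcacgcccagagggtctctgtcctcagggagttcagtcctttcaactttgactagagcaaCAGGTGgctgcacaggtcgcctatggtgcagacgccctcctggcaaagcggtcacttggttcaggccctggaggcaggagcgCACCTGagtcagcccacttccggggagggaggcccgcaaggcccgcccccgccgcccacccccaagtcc
Ap1m2, chr9:21312334-21312433, minus strand: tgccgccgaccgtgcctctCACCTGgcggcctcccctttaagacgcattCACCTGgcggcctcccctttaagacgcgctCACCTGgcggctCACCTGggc
Epcam, chr17:87635779-87635978, plus strand: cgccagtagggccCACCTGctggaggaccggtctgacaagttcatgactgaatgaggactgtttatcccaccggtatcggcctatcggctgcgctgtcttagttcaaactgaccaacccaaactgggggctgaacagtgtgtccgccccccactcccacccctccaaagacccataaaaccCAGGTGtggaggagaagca
Lsr and Ap1m2 each held 4 E-boxes in the printed stretch, and Rab25 held the grainyhead letters on the opposite strand beside 2 E-boxes. A match describes the letters only. Llgl2, Marveld3, Prss8, Cdh1, Pkp2, Grhl2, Ovol1, St14, Pkp3 and Dsg2 had no entry.

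Both adherens and adhesion genes rose. Cdh1, the gene of E-cadherin (chr8:106603351-106670246 in mm10), had 232 CPM in its lowest, 296 in its median and 306 in its highest 0 h library and 308, 460 and 625 CPM at 24 h. Its average log2 change was 0.70 (SE 0.11, adjusted p = 0.00115), and the times did not overlap in CPM although the lowest 24 h library, of iFoxC1, was close to the highest 0 h library. Epcam, the gene of an epithelial adhesion molecule that binds claudin-7, had a lowest, median and highest CPM of 57.7, 63.0 and 88.3 at 0 h and 82.5, 144 and 177 at 24 h. Its change was 0.99 (SE 0.08, adjusted p = 3.85e-05), and the overlap came from iFoxA1, whose 24 h libraries held 82.5, 88.0 and 111 CPM against 121 to 177 CPM in the other lines. Epcam was called in each of the 5 lines on its own.

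Among the claudins, which form the paracellular seal, 4 of 5 rose on average. Cldn3 (chr5:134986214-134987472) was scarce at 0 h, with 1.16 CPM in the lowest library, 1.39 in the median and 3.89 in the highest, and it held 5.50, 6.68 and 11.9 CPM at 24 h. Its change of 2.01 (SE 0.12, adjusted p = 5.17e-06) was the largest of the 34 genes drawn in the plot of average changes. The iFoxC1 libraries were highest at both times, at 3.89 CPM at 0 h and 11.2 and 11.9 CPM at 24 h. Cldn6, a claudin of early embryonic epithelia, had 15.2 to 27.3 CPM at 0 h (median 19.6) and 29.5 to 119 CPM at 24 h (median 56.2), a change of 1.51 (SE 0.25, adjusted p = 0.00148). Its libraries of iFoxL2 at 24 h stood far apart, at 119 and 32.2 CPM, the latter in the library with little Foxl2 RNA.

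Cldn4 held 35.1 to 50.1 CPM at 0 h (median 38.7) and 45.2 to 128 CPM at 24 h (median 84.6), with a change of 1.13 (SE 0.22, adjusted p = 0.00316). Its overlap came from iFoxA1 replicate 1, at 45.2 CPM. Cldn7 held 2.42 to 4.60 CPM at 0 h and 2.47 to 22.8 CPM at 24 h (medians 2.95 and 6.19), with a change of 1.08 (SE 0.28, adjusted p = 0.0140). The highest Cldn7 value was again iFoxL2 replicate 1, and without the 0 h library of iFoxP3 the adjusted p was 0.0549.

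Cldn10 (chr14:118787908-118875489), the gene of a claudin whose isoforms form cation or anion pores, was nearly absent at 0 h and was called higher in a single line. In iFoxA1 it had 1 count over both 0 h libraries and 405 counts over the 3 libraries at 24 h, or 4.71, 4.03 and 6.95 CPM, a ratio of 232 with a 95% interval of 41.4 to 9179 that covers counting error only. In iFoxC1 it went from 1 count to 5, a ratio of 1.95 (interval 0.22 to 92.3), and in iFoxL2 from 0 to 13 counts, at least 1.55-fold higher against a floor of 3 counts in the 0 h library. It had 0 counts at both times in iFoxG1, and 0 and 2 counts in iFoxP3. No library outside iFoxA1 at 24 h held more than 0.305 CPM of Cldn10. It thus passed the filter on low counts only through the group where it was high. Its calls in iFoxA1 and among lines follow in part from that and are not separate support. The level in iFoxA1 replicate 3, the library with less Foxa1 RNA, was above that of replicates 1 and 2.

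The other transmembrane proteins of the tight junction also rose, unevenly. F11r, the gene of junctional adhesion molecule A, had 40.0 to 51.0 CPM at 0 h and 58.0 to 121 CPM at 24 h (medians 43.3 and 75.4), a change of 0.89 (SE 0.07, adjusted p = 2.92e-05), and was called in all 5 lines. Lsr, the gene of a receptor at tricellular contacts, went from 9.81 to 21.8 CPM (median 19.0) to 31.0 to 66.3 CPM (median 56.7), a change of 1.60 (SE 0.11, adjusted p = 1.17e-05). Its lowest libraries at both times were of iFoxC1, and it too was called in all 5 lines. Marveld2, the gene of tricellulin, had 1.74 to 2.98 CPM at 0 h and 2.95 to 14.8 CPM at 24 h, a change of 1.43 (SE 0.33, adjusted p = 0.00857). The highest Marveld2 values were iFoxA1 replicates 1 and 2, at 14.8 and 14.6 CPM, and iFoxL2 replicate 1, at 10.4 CPM, while the low-transgene libraries of these lines held 5.08 and 2.95 CPM. Marveld3, of the same family, had 0.14 to 0.81 CPM at 0 h and 0.68 to 4.07 CPM at 24 h, a change of 1.78 (SE 0.32, adjusted p = 0.00224).

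Ocln (chr13:100496507-100552718), the gene of occludin, rose on average by 0.55 (SE 0.18, adjusted p = 0.0390), but within lines it was called in iFoxA1 alone, and the test of a difference among the 5 changes did not call it (adjusted p = 0.175). In iFoxA1 it went from 3.01 and 2.32 CPM to 14.2, 12.1 and 6.80 CPM. The other lines held 7.06 CPM before and 7.44 and 6.84 CPM after in iFoxC1, 3.55 and 3.93 and 3.05 in iFoxG1, 4.22 and 7.01 and 5.77 in iFoxL2, and 3.13 and 3.00 and 3.82 in iFoxP3. Its average change was not called in 10 of the 17 fits that left out 1 library, with a highest adjusted p of 0.0774 without iFoxP3 24 h replicate 2.

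The cytoplasmic plaque of the tight junction gave both clear rises and the least changed member. Cgn, the gene of cingulin, which links the junction to actomyosin, had 14.2 to 21.8 CPM at 0 h (median 14.5) and 22.4 to 81.4 CPM at 24 h (median 50.6), a change of 1.68 (SE 0.23, adjusted p = 0.000507). Its lowest 24 h libraries were the low-transgene ones, at 22.4 CPM in iFoxA1 replicate 3 and 37.4 CPM in iFoxL2 replicate 2, and even these were above every 0 h library. Tjp1, the gene of the scaffold ZO-1, had 105 to 159 CPM at 0 h and 200 to 318 CPM at 24 h, a change of 0.92 (SE 0.10, adjusted p = 0.000134). Tjp3, the gene of ZO-3, had 2.87 to 9.15 CPM at 0 h and 2.43 to 14.2 CPM at 24 h and an average change of 0.05 (SE 0.27, adjusted p = 0.917). Its highest library was iFoxL2 24 h replicate 2, at 14.2 CPM, and without the 2 low-transgene libraries its change was -0.19 (adjusted p = 0.0906).

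All 4 polarity genes rose, by less than the tight junction genes at the median. The median log2 change was 0.71 for the polarity genes and 1.28 for 12 tight junction genes without Cldn10, a difference that was not tested. Pard3, the gene of the Par complex scaffold, had 29.8 to 46.4 CPM at 0 h and 51.4 to 96.7 CPM at 24 h, a change of 0.76 (SE 0.08, adjusted p = 9.95e-05) with no overlap in CPM. Pard6b, its partner, had 20.3 to 26.5 CPM at 0 h and 20.4 to 53.8 CPM at 24 h, a change of 0.66 (SE 0.14, adjusted p = 0.00495). The iFoxA1 libraries at 24 h, at 20.4, 21.2 and 26.6 CPM, reached no further than just above the highest 0 h library, and those of the other lines held 28.7 CPM or more. Crb3, the gene of the apical Crumbs protein of most epithelia, had 1.82 to 4.77 CPM at 0 h and 3.49 to 9.56 CPM at 24 h, a change of 0.92 (SE 0.19, adjusted p = 0.00477). Llgl2, of the basolateral Scribble group, had 113 to 141 CPM at 0 h and 98.9 to 222 CPM at 24 h, a change of 0.47 (SE 0.16, adjusted p = 0.0395). Replicates 1 and 2 of iFoxA1 were the lowest of all, at 99.1 and 98.9 CPM. Leaving out 1 library ended the Llgl2 call in 11 of 17 fits (highest adjusted p 0.13 without iFoxG1 0 h replicate 1), as did library set as a term in the fit (0.0569).

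The desmosome genes divided. Pkp2, the gene of the plaque protein plakophilin 2, had 37.4 to 51.1 CPM at 0 h and 54.2 to 104 CPM at 24 h, a change of 0.71 (SE 0.08, adjusted p = 0.000200) with no overlap in CPM. Dsg2, the gene of the desmosomal cadherin desmoglein 2, went the other way. It had 52.8 CPM in the lowest, 68.1 in the median and 74.7 in the highest 0 h library and 25.8, 29.9 and 68.6 CPM at 24 h, a change of -0.84 (SE 0.22, adjusted p = 0.0130) that was called in all 17 fits leaving out 1 library. The Dsg2 libraries that overlapped the 0 h range were the low-transgene ones, at 56.6 CPM in iFoxA1 replicate 3 and 68.6 CPM in iFoxL2 replicate 2, and without these 2 libraries the change was -1.08 (adjusted p = 1.14e-06).

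Dsp, the gene of desmoplakin, which binds intermediate filaments, varied among the lines. In iFoxL2 it went from 28.0 CPM to 171 and 69.6 CPM, in iFoxC1 from 44.1 to 82.0 and 86.1 CPM, and in iFoxA1 from 21.9 and 22.3 to 62.3, 57.3 and 30.8 CPM. In iFoxG1 it stood at 17.9 CPM at 0 h and 20.04 and 20.8 CPM at 24 h, and in iFoxP3 at 19.5 CPM and then 22.9 and 20.3 CPM. Its average change was 0.91 (SE 0.22, adjusted p = 0.00921), and 0.0782 was the adjusted p without the 0 h library of iFoxL2. Jup, the gene of plakoglobin, shared by desmosomes and adherens junctions, had 71.9 to 128 CPM at 0 h and 71.0 to 294 CPM at 24 h, a change of 0.75 (SE 0.22, adjusted p = 0.0230). In iFoxA1 it held 112 and 118 CPM at 0 h and 71.0, 73.9 and 155 CPM at 24 h, so that replicates 1 and 2 stood below the 0 h level and replicate 3 above it. The Jup call was lost without the 0 h library of iFoxC1, iFoxG1 or iFoxP3, with a highest adjusted p of 0.0846. Pkp3, of plakophilin 3, had 4.27 to 6.92 CPM at 0 h and 4.89 to 12.0 CPM at 24 h, a change of 0.51 (SE 0.17, adjusted p = 0.0423). Leaving out 1 library ended the Pkp3 call in 13 of 17 fits (highest adjusted p 0.149 without iFoxL2 0 h replicate 1).

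Grhl2, the gene of a grainyhead factor that is known to act on Cdh1 and claudin genes, had the smallest adjusted p of the list (change 1.69, SE 0.09, adjusted p = 2.52e-06). It lies at chr15:37233036-37363569. In iFoxA1 it held 20.5 and 17.9 CPM at 0 h and 25.4, 24.7 and 27.0 CPM at 24 h. It went from 8.01 to 53.6 and 57.3 CPM in iFoxC1 and from 24.7 to 81.2 and 91.2 CPM in iFoxG1. The iFoxL2 libraries went from 21.04 to 52.9 and 72.3 CPM, and those of iFoxP3 from 24.1 to 86.1 and 91.6 CPM. The iFoxA1 libraries at 24 h lay together at or just above the level of the highest 0 h library, and every 24 h library of the other 4 lines held at least 52.9 CPM.

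Of the other epithelial factors, Grhl1, Ovol1 and Ovol2 were at lower median levels than Grhl2. Grhl3 was near Grhl2 at 0 h, with medians of 16.0 CPM and 6.71 TPM against 20.8 CPM and 6.03 TPM. Grhl1 had 2.54 to 4.54 CPM at 0 h and 3.34 to 11.0 CPM at 24 h, a change of 1.14 (SE 0.16, adjusted p = 0.000645). Grhl3, which is known for its part in neural tube closure and the skin barrier, had 14.1 to 39.1 CPM at 0 h and 16.2 to 51.3 CPM at 24 h, a change of 0.79 (SE 0.24, adjusted p = 0.0280). The iFoxC1 library was the highest for Grhl3 at 0 h. The Grhl3 call was lost in 8 of 17 fits leaving out 1 library (highest adjusted p 0.078 without iFoxG1 0 h replicate 1) and with library set as a term (0.0608). Ovol1, the gene of a zinc finger repressor that favours the epithelial state, had 0.15 to 0.50 CPM at 0 h and 0.16 to 2.03 CPM at 24 h, a change of 1.73 (SE 0.38, adjusted p = 0.00641). Ovol1 stayed in its 0 h range in iFoxA1 replicates 1 and 2, at 0.20 and 0.16 CPM. Ovol2, a factor of the same family, had 0.57 to 2.88 CPM at 0 h and 0.92 to 4.40 CPM at 24 h, a change of 0.67 (SE 0.24, adjusted p = 0.0490). The 0 h library of iFoxC1 was the lowest for Ovol2, without it the change was 0.25 (adjusted p = 0.478), and 13 of 17 fits leaving out 1 library did not call it.

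Neither epithelial sorting gene passed the threshold. Ap1m2, the gene of the epithelial clathrin adaptor subunit, had 4.17 to 14.8 CPM at 0 h and 7.78 to 26.7 CPM at 24 h, with a change of 0.51 (SE 0.25, adjusted p = 0.132). Rab25, the gene of an apical recycling GTPase, had 0.53 to 2.43 CPM at 0 h and 0.75 to 6.56 CPM at 24 h, with a change of 1.04 (SE 0.40, adjusted p = 0.0682). It was called in 3 of 17 fits leaving out 1 library, with a lowest adjusted p of 0.00976.

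On average the membrane proteases rose and their inhibitors did not. Prss8, the gene of prostasin (chr7:127925716-127930104), had 3.54 to 8.55 CPM at 0 h (median 7.00) and 11.4 to 31.7 CPM at 24 h (median 25.6), a change of 1.74 (SE 0.14, adjusted p = 2.22e-05). The iFoxC1 libraries were the lowest at 24 h, at 11.4 and 11.8 CPM, and still above every 0 h library. St14, the gene of matriptase, which activates prostasin, had 25.9 to 53.6 CPM at 0 h and 41.3 to 84.9 CPM at 24 h, a change of 0.47 (SE 0.10, adjusted p = 0.00446). St14 was not called in any single line, and its fitted change was above 0 in 4 lines. In iFoxC1 it held 53.6 CPM at 0 h and 48.6 and 50.7 CPM at 24 h. Its median was 15.4 TPM at 0 h and 16.0 TPM at 24 h. Spint1, the gene of the matriptase inhibitor HAI-1, had 42.4 to 65.5 CPM at 0 h and 32.6 to 56.1 CPM at 24 h, a change of -0.37 (SE 0.12, adjusted p = 0.0327). Its fall was not called in 7 of 17 fits leaving out 1 library (highest adjusted p 0.0743 without iFoxC1 0 h replicate 1). Spint2, of the related inhibitor HAI-2, had 75.1 to 110 CPM at 0 h and 90.0 to 146 CPM at 24 h, with a change of 0.18 (SE 0.11, adjusted p = 0.213).

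**Figure D2:**
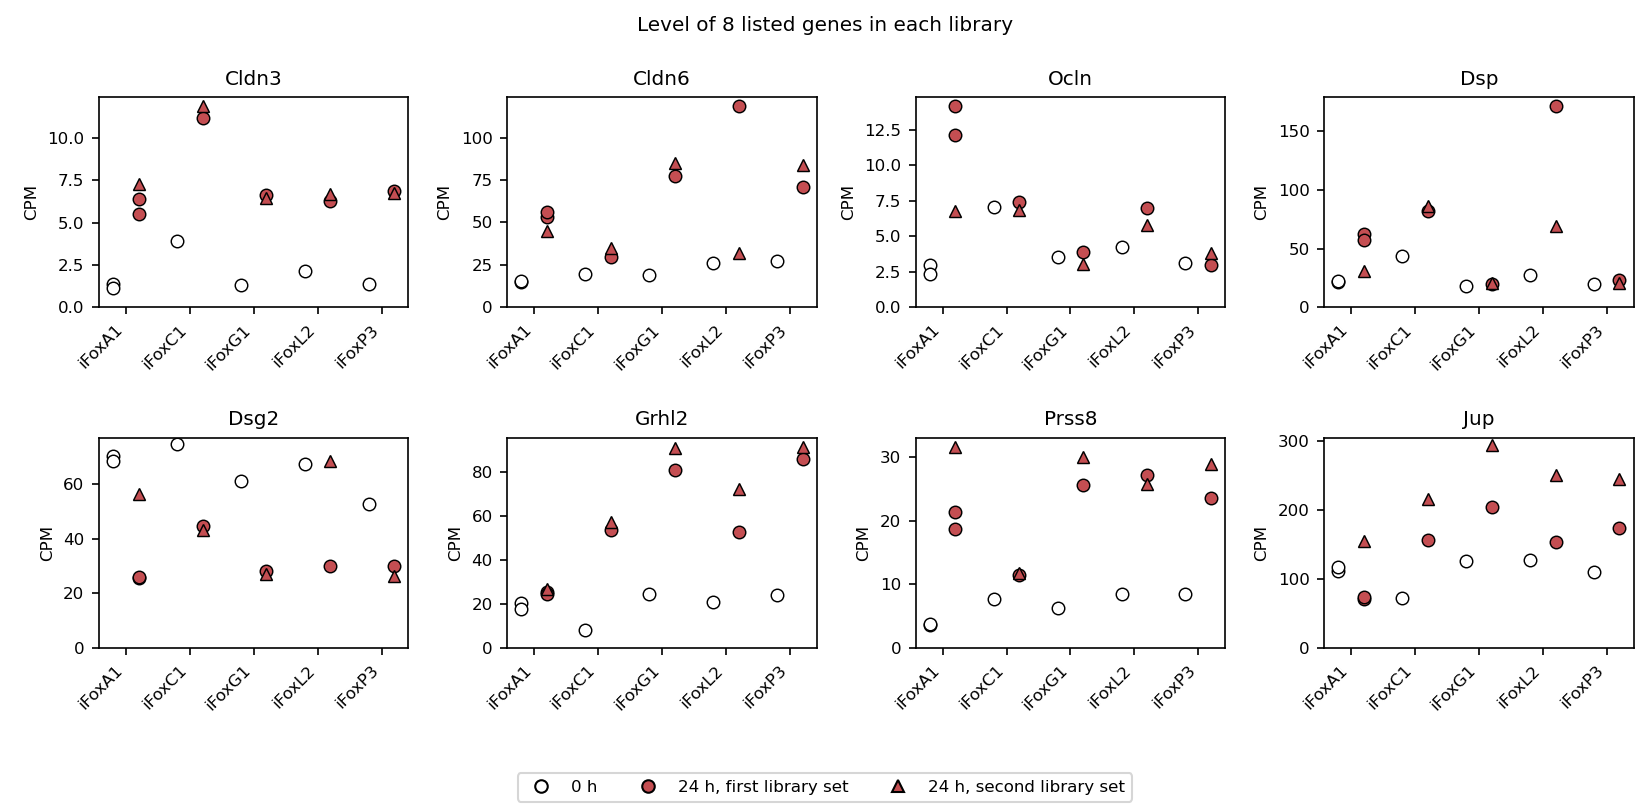
CPM (vertical axis, starting at 0) of 8 of the genes in each library by line; open circles are 0 h libraries, filled circles 24 h libraries of the first set and triangles those of the deeper second set. Grhl2 in iFoxA1 stays near 25 CPM at 24 h while the other lines reach 52.9 to 91.6 CPM, Ocln is highest in iFoxA1 replicates 1 and 2, Dsp is low in iFoxG1 and iFoxP3, and Dsg2 is below its line's 0 h level at 24 h in every library but iFoxL2 replicate 2.

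For 10 of the genes an exon overlaps an exon of another gene on the opposite strand (Cldn3 with Wbscr25, Crb3 with Dennd1c, Dsg2 with Gm16090, Dsp with Gm10129, Grhl2 with Gm16136, Lsr with Gm17077 and Gm4673, Ovol1 with AC126029.1 and Gm31166, Ovol2 with 1700108N11Rik, Prss8 with Kat8 and Tjp3 with Apba3). The libraries were strand-specific per the labels, but the sources used here do not give the strand setting of the quantification, so the split of reads between such partners is uncertain.

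Line by line, fewer genes passed. Each of these comparisons rested on fewer libraries than the average, and 4 of the lines had a single 0 h library and borrowed the spread of the other groups. The test called 14 of 35 genes higher in iFoxA1 (6.62% of all tested genes were), 7 in iFoxC1 (6.23%) and 8 in iFoxG1 (3.34%). It called 9 each for iFoxL2 (2.31%) and iFoxP3 (3.25%). It called 0 lower in each line, where 4.14%, 3.47%, 2.29%, 1.94% and 2.79% of all tested genes were. At an unadjusted p under 0.05 there were 2 lower in iFoxA1, 1 in iFoxG1 and 0 in the others, and DESeq2 called 0 in each. Other settings did call genes lower. With library set as a term there were 3 in iFoxA1, 1 each in iFoxC1 and iFoxG1 and 0 in the others. With a replicate block there were 4 in iFoxA1, 1 each in iFoxC1 and iFoxG1 and 0 in the others. The first library set alone, and the fit without the low-transgene libraries, called genes lower in every line. Epcam, Cldn3, F11r and Lsr were called in all 5 lines. Tjp1 was called in all but iFoxC1, Prss8 in all but iFoxC1 and Grhl2 in all but iFoxA1, Pard3 in 3 lines and Pkp2 in 2, while 10 genes were called in 1 line and 16 in none. The fitted change was above 0 in all 5 lines for 22 of the 35 genes, and below 0 in all 5 for Dsg2 and Spint1. These comparisons share a pooled spread, and single libraries moved the counts. Leaving out either 0 h library of iFoxA1 gave 6 or 5 calls in that line, 4 in iFoxL2 and 5 each in iFoxG1 and iFoxP3. Leaving out either iFoxL2 24 h library gave 11 calls in iFoxC1 and 14 each in iFoxG1 and iFoxP3, and without replicate 2 there were 17 in iFoxL2. Leaving out iFoxA1 24 h replicate 3 gave 12 in iFoxC1, and without a 24 h library of the line itself there were 4 in iFoxC1 (replicate 2), 4 and 5 in iFoxG1 and 5 and 4 in iFoxP3. The count in iFoxG1 was also 5 without iFoxA1 24 h replicate 1 or 2 or either iFoxC1 24 h library.

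The calls of each class were spread unevenly over the lines. In iFoxA1 10 of the 13 tight junction genes, with Cldn10 among them, and 0 of the 5 epithelial factor genes were called higher (6.62% of all tested genes were). In iFoxC1, which had fewer libraries, 3 of 13 and 3 of 5 were (6.23%). A gene without a call was not always unchanged. In log2(CPM + 0.5), the iFoxC1 24 h libraries lay 1.57 and 1.68 above the 0 h level for Cgn and 1.26 and 1.31 for Cldn4, both uncalled, and below it for Tjp3. The iFoxA1 changes included 2.65 for Marveld2 (SE 0.60, adjusted p = 0.0225), 2.04 for Ocln (SE 0.33, adjusted p = 0.00482) and 2.71 for Prss8 (SE 0.24, adjusted p = 0.00026). The factor genes in iFoxC1 were Grhl1 with 1.74 (SE 0.40, adjusted p = 0.0259), Grhl2 with 2.79 (SE 0.22, adjusted p = 0.000294) and Ovol2 with 2.35 (SE 0.62, adjusted p = 0.0436). Whether these class counts differ between lines was not tested beyond the gene tests that follow.

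**Figure D3:**
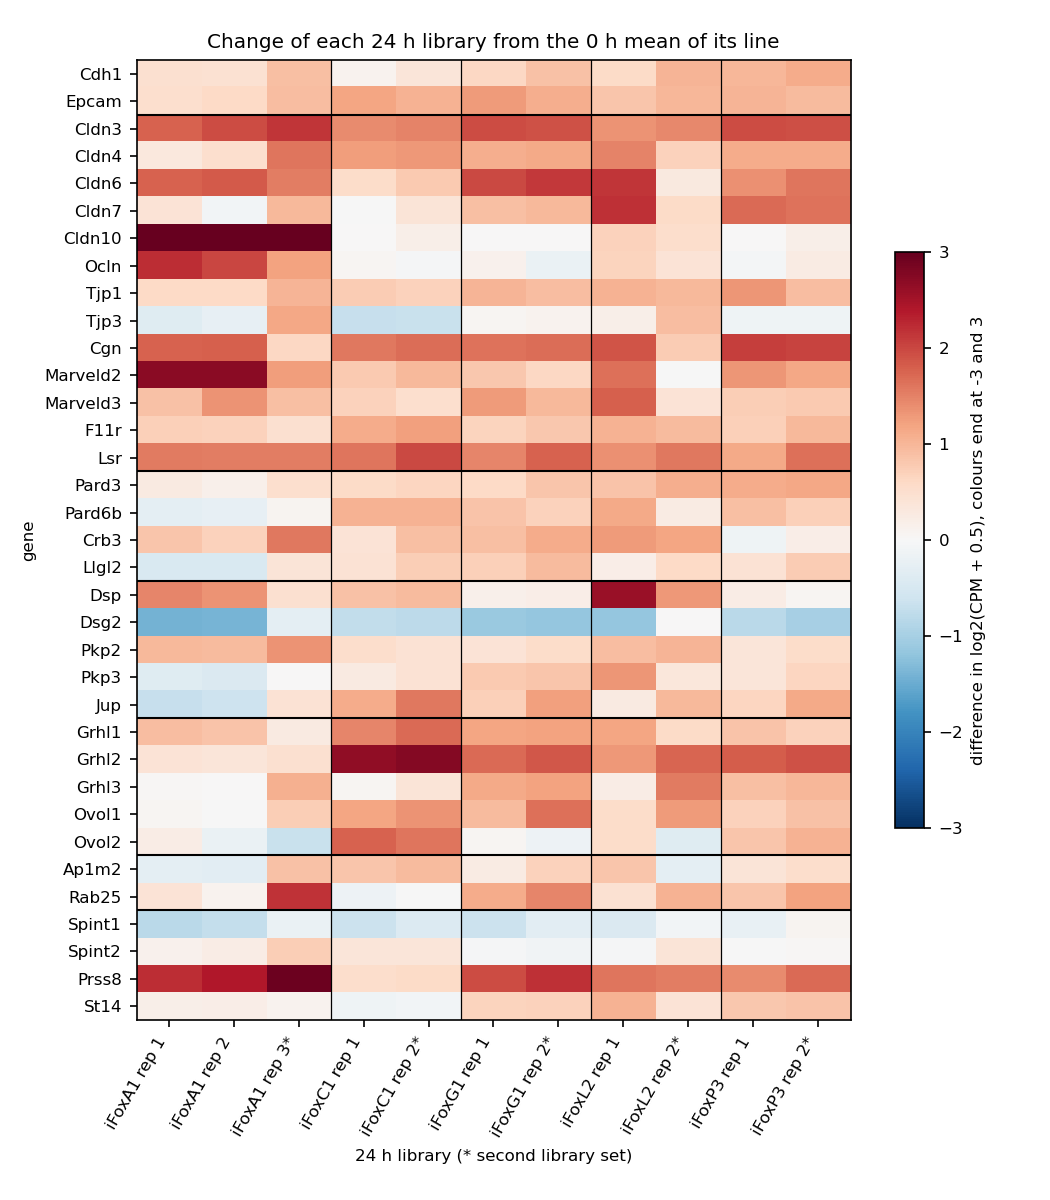
Difference in log2(CPM + 0.5) between each 24 h library and the 0 h mean of its line (colour, ending at -3 and 3) for the 35 genes in rows by class and the 11 libraries at 24 h in columns; asterisks mark the second library set. Between 24 and 33 of the 35 genes lie above their own 0 h level in each library, and the Dsg2 and Spint1 rows are mostly blue.

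The change itself differed among the 5 lines for 1 of 35 genes, Grhl2 (F test over 4 contrasts, adjusted p = 0.0135), where 0.984% of all tested genes did; 7 of the 35 had an unadjusted p under 0.05. The Grhl2 change was 0.42 in iFoxA1 (SE 0.14, adjusted p = 0.0989) and 2.79 in iFoxC1. It was 1.80 for iFoxG1, 1.57 for iFoxL2 and 1.88 for iFoxP3, each with an SE of 0.21. The iFoxC1 value starts from the lowest 0 h level, 8.01 CPM in a single library, and the iFoxA1 value ends at the lowest 24 h level. This difference was not called in 6 of 17 fits leaving out 1 library: without iFoxA1 0 h replicate 1 (adjusted p 0.113) or 2 (0.0783), iFoxA1 24 h replicate 1 (0.0609) or 2 (0.0562), or iFoxC1 24 h replicate 1 (0.0533) or 2 (0.0606). DESeq2 called Ocln and Prss8 besides Grhl2. At 0 h the lines differed for 0 of 35 genes by edgeR (0.494% of all tested genes did, and 5 of the 35 had an unadjusted p under 0.05), and DESeq2 called 5: Cldn3, Lsr, Grhl2, Prss8 and St14. The edgeR count at 0 h was 3 without iFoxA1 24 h replicate 3 or either iFoxL2 24 h library, 2 without the 0 h library of iFoxL2 and 1 without that of iFoxG1.

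At 24 h, where each line had 2 or 3 libraries, the lines differed for 9 of 35 genes (13.1% of all tested genes): Grhl2 (adjusted p = 0.000391), Cldn10 (0.000854), Dsp (0.00747), F11r (0.00761), Epcam (0.0167), Ocln (0.0199), Pkp2 (0.0232), Prss8 (0.0328) and Cldn3 (0.0417). Single libraries moved this count between 5 (without iFoxA1 24 h replicate 2, iFoxC1 24 h replicate 2 or either iFoxG1 24 h library) and 17 (without iFoxA1 24 h replicate 3), with 14 without either iFoxL2 24 h library. Set against the mean of the 4 others, iFoxA1 differed for 9 genes. It was higher for 2 (8.88% of all tested genes): Cldn10, which passed the filter on low counts only through this line, and Ocln (1.19, SE 0.22, adjusted p = 0.00573). It was lower for 7 (6.25% of all tested genes): Ovol1 (-1.93), Grhl2 (-1.48, SE 0.12, adjusted p = 6.15e-05), Jup (-1.07), Pard6b (-0.81), Grhl1 (-0.80), Epcam (-0.67) and F11r (-0.49). So 3 of the 5 epithelial factor genes were lower in iFoxA1 than in the other lines and none was called higher. The iFoxA1 libraries also held the most extraembryonic endoderm marker RNA at 24 h, 142 to 201 TPM against at most 57.8 TPM in the other lines, with 9 of 10 markers called higher in this line than in the 4 others. The part of such cells in the difference was not tested.

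The other lines stood out for fewer genes. In iFoxC1, Cldn3 (0.81, SE 0.15, adjusted p = 0.0163) and F11r (0.58, SE 0.10, adjusted p = 0.0122) were higher (2.41% of all tested genes were) and Prss8 was lower (-1.17, SE 0.20, adjusted p = 0.0122; 1.28% were). In iFoxL2, Dsp (1.70, SE 0.28, adjusted p = 0.0241) and Pkp2 (0.58, SE 0.11, adjusted p = 0.0413) were higher (1.12%), and 0 were lower (0.52%). Grhl2 was higher in iFoxG1 (0.70, SE 0.12, adjusted p = 0.0131; 1.5%) and in iFoxP3 (0.76, SE 0.12, adjusted p = 0.0257; 0.293%). Cldn10 was called lower in iFoxG1, where it had 0 counts (1.24%), and 0 genes were lower in iFoxP3 (0.262%). Leaving out single libraries gave 5 to 16 calls for iFoxA1, 0 to 8 for iFoxC1, 0 to 4 for iFoxG1, 0 to 8 for iFoxL2 and 0 to 3 for iFoxP3. The iFoxC1 count fell to 0 without either of its own 24 h libraries, as did that of iFoxG1, and the highest counts came without iFoxA1 24 h replicate 3 (16 for iFoxA1, 8 for iFoxL2) or an iFoxL2 24 h library (8 for iFoxC1 and 3 for iFoxP3).

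**Figure D4:**
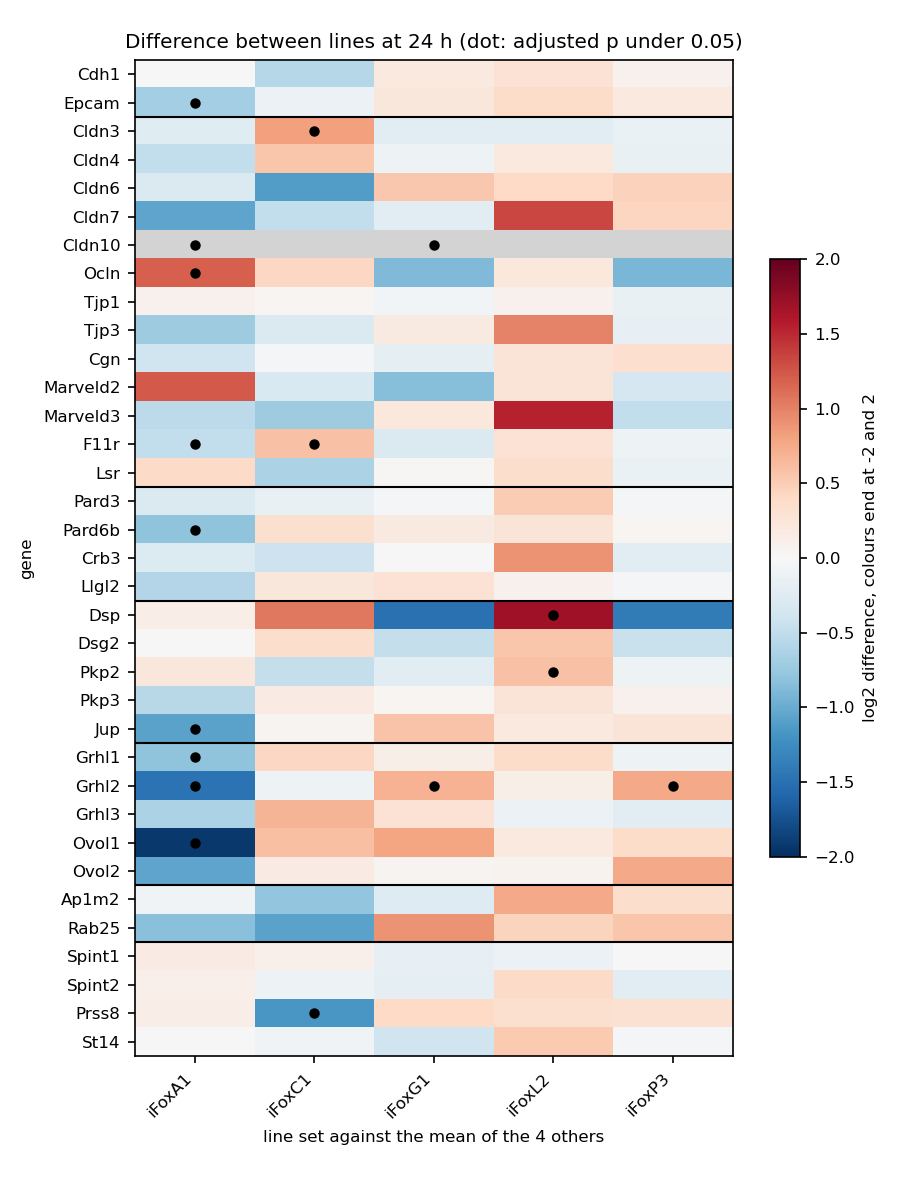
Log2 difference at 24 h between each line and the mean of the 4 others (colour, ending at -2 and 2) for the 35 genes; dots mark an adjusted p under 0.05 and the Cldn10 row is grey because it had 0 to 2 counts in several libraries. The iFoxA1 column holds 9 dots, 7 of them on lower values, and Grhl2 has a dot in 3 columns.

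The 2 library sets at 24 h differed for 4 of 35 genes in a fit with line as a term. Cdh1 (0.30, SE 0.06, adjusted p = 0.0163), Llgl2 (0.43, SE 0.09, adjusted p = 0.0162), Jup (0.67, SE 0.10, adjusted p = 0.00331) and Spint1 (0.36, SE 0.07, adjusted p = 0.0114) were higher in the second set, where 9.46% of all tested genes were. None was called lower (11.4% of all tested genes were; 2 had an unadjusted p under 0.05, and DESeq2 called 6 higher and 0 lower). With library set as a term, the average change of Jup was 0.40 (adjusted p = 0.00867) and that of Llgl2 0.24.

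Within lines, genes past a 2-fold gap between the sets were found in iFoxA1 and iFoxL2, the lines with a low-transgene library. In iFoxL2 7 of the 35 genes were over 2-fold higher in replicate 1 and 2 over 2-fold lower (10.1% and 9.37% of all tested genes were, with no test), and in iFoxA1 2 were over 2-fold higher in the mean of replicates 1 and 2 than in replicate 3 and 7 lower (7.7% and 6.79%). In iFoxC1, iFoxG1 and iFoxP3 0 of 35 were past 2-fold in either direction (3.96% and 1.65%, 3.73% and 1.79%, 3.88% and 1.77% of all tested genes were). Cgn and Marveld2 were higher with more transgene RNA in both lines: Cgn was at 81.4 against 37.4 CPM in iFoxL2 and at 50.6 and 50.9 against 22.4 CPM in iFoxA1. Dsg2 and Grhl3 were lower with more transgene RNA in both lines, Grhl3 at 16.5 against 42.6 CPM in iFoxL2 and at 16.5 and 16.2 against 34.2 CPM in iFoxA1. Ap1m2 went opposite ways, at 26.7 against 12.0 CPM in iFoxL2 and at 8.43 and 8.38 against 19.6 CPM in iFoxA1. The genes past 2-fold in 1 line were Cldn6, Cldn7, Marveld3 and Dsp in iFoxL2 and Cldn4, Tjp3, Jup and Rab25 in iFoxA1. Cldn4 was at 45.2 and 50.9 against 111 CPM, and Rab25 at 1.04 and 0.75 against 4.76 CPM. Without the low-transgene libraries 30 of 35 genes rose on average and 2 fell, Ap1m2 (0.50, adjusted p = 0.00324) and Rab25 (0.71, adjusted p = 0.0076) being called. In the same fit the average change was 1.83 for Cgn, 1.63 for Marveld2, 1.93 for Marveld3, 1.66 for Cldn6, 1.13 for Cldn7 and 1.09 for Cldn4. It was 1.07 for Dsp, 0.54 for Grhl3 and 0.58 for Jup, each with an adjusted p of 0.008 or less. Depth differed with the transgene RNA in both lines, and their parts cannot be told apart. The summed trophoblast markers were higher with more transgene RNA, at 172 and 167 against 79.7 TPM in iFoxA1 and 177 against 56.3 TPM in iFoxL2. The epithelial keratins Krt8 and Krt18 made up most of the higher sums. In iFoxA1 Hand1, Eomes, Ascl2 and Tfap2c were lower with more transgene RNA, and Cdx2 was higher. In iFoxL2 Hand1 and Eomes were lower and the other markers higher. Summed endoderm markers were also higher with more transgene RNA, at 201 and 196 against 142 TPM in iFoxA1 and 57.8 against 27.2 TPM in iFoxL2. Summed ES markers went the other way, at 3493 and 3525 against 5928 TPM in iFoxA1 and 3497 against 5373 TPM in iFoxL2, and the part of none of these was tested.

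**Figure D5:**
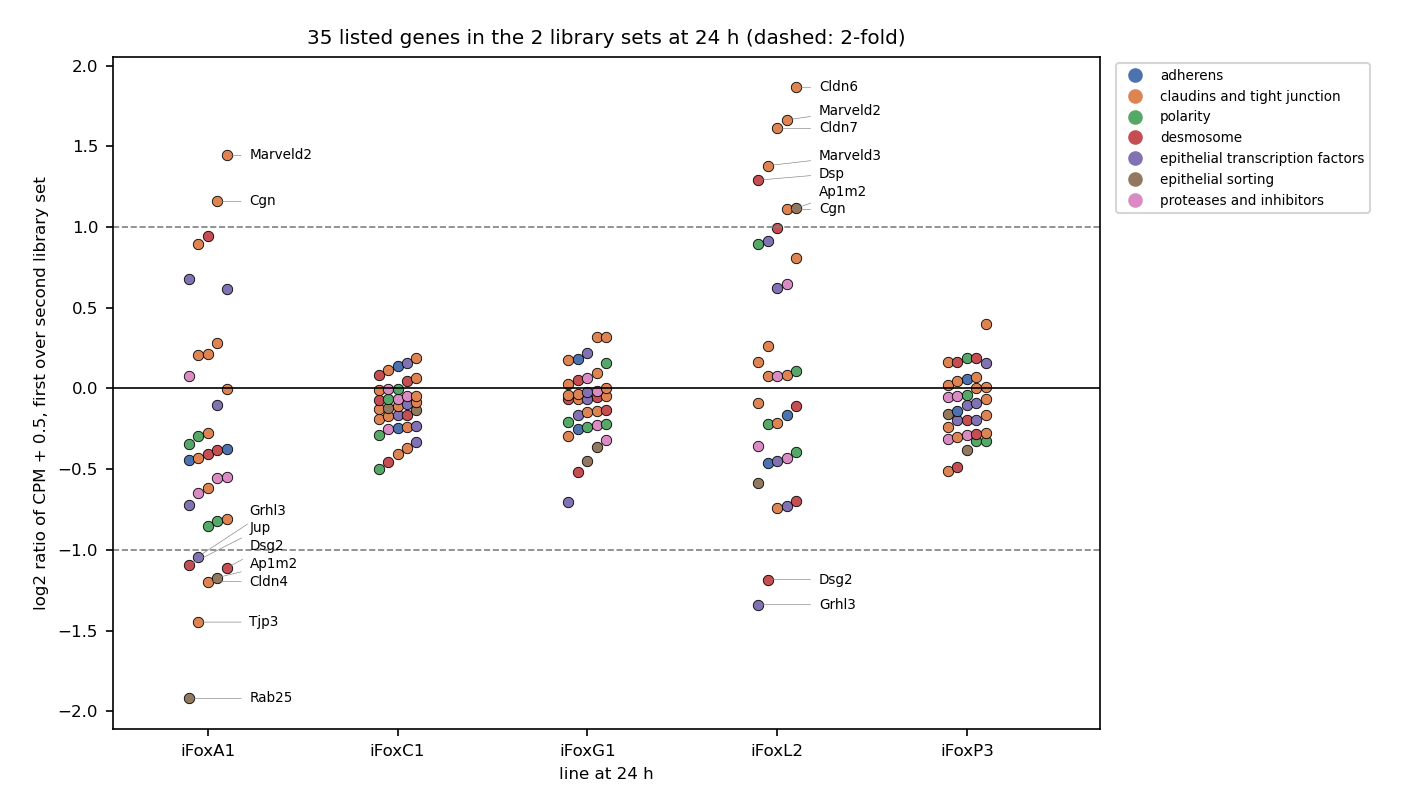
Log2 ratio of CPM + 0.5 between the first and the second library set at 24 h (vertical axis) for the 35 genes in each line; dashed lines mark 2-fold and named genes lie beyond them. Only iFoxA1 (9 genes) and iFoxL2 (9 genes) have genes past 2-fold.

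Single transcripts added detail that gene sums hide. The coding transcript Grhl2-201 was at 0.45 to 3.40 TPM at 0 h and 3.19 to 19.3 TPM at 24 h. The retained-intron transcript Grhl2-206 was at 0.92 to 1.94 TPM at 0 h and 0.18 to 1.27 TPM at 24 h, so the rise of the gene lay in other transcripts. Cldn10 RNA in iFoxA1 at 24 h was split unevenly between its main transcripts: Cldn10-203 and Cldn10-201 were at 2.73 and 1.22 TPM in replicate 1, 2.87 and 0 TPM in replicate 2, and 1.46 and 3.68 TPM in replicate 3. Short transcripts differed between the library sets: the processed transcript Tjp1-203, of 699 bases, was at 9.32 to 19.7 TPM in the second set and at 0 to 4.60 TPM in every other library. Epcam-203, of 581 bases, was likewise at 6.72 to 21.9 TPM in the second set and 1.61 to 6.32 TPM elsewhere. The TPM of these short transcripts thus moved with the library set, and TPM sums of these genes carry it. Whether this lies in the RNA or in the assignment of reads to transcripts was not tested.

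Other genes of the same pathways, from lists fixed with earlier results of these data known, changed less uniformly; their counts stand against 21.7% of all tested genes that rose and 16.1% that fell. Of 18 further tight junction genes tested, 8 rose and 2 fell on average (median log2 change 0.64), with Magi1, a scaffold gene of the junction, at 1.11. The falls, named after their values were seen, were Jam2, of a junctional adhesion molecule, which went from 142 to 177 CPM at 0 h to 8.69 to 71.0 CPM at 24 h (-2.69), and Ildr1, of a tricellular junction receptor (-0.59). Of 11 further adherens junction genes 7 rose and 0 fell (median 0.35), among them Vcl, of vinculin (0.93), and Cdh2, of N-cadherin, which went from 1.18 to 2.68 CPM at 0 h to 4.20 to 26.9 CPM at 24 h (2.14). Of 6 further desmosome genes 3 rose and 0 fell (median 1.00), with Ppl, of periplakin, at 1.17 and Evpl, of envoplakin, at 1.22. Polarity genes outside the list rose in 8 of 15 and fell in 0 (median 0.39), led by Patj, a Crumbs complex scaffold, which went from 3.55 to 8.08 CPM at 0 h to 11.4 to 35.8 CPM at 24 h (2.10), and Dlg3 (0.59).

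The remaining lists went both ways. Of 10 further epithelial factors and splicing regulators 3 rose and 2 fell (median -0.36), shares near those of all tested genes. Esrp1, an epithelial splicing regulator, rose from 1.33 to 16.1 CPM at 0 h to 47.0 to 102 CPM at 24 h (3.21), and Ehf, an epithelial ETS factor, fell from 0.40 to 1.08 CPM to 0.06 to 0.55 CPM (-1.84). Of 8 further serine proteases and inhibitors 3 rose and 1 fell (median -0.02), with Hpn, of hepsin, at 1.41 and the inhibitor gene Serpine2 at 1.06. Of 9 genes of the epithelial-mesenchymal transition 3 rose and 2 fell (median 0.74). Those 2 were Vim, of the intermediate filament vimentin, which went from 277 to 519 CPM at 0 h to 111 to 244 CPM at 24 h (-1.31), and Zeb1, of a repressor of Cdh1, which went from 17.4 to 27.7 CPM to 6.90 to 21.1 CPM (-0.72). The genes that rose were those of the transcription factors Snai3 (1.74), Twist1 (1.29) and Zeb2 (0.74), named after their values were seen. All were scarce, and their ranges overlapped between the times. Snai3 had 0.47 to 0.92 CPM at 0 h and 0.64 to 4.63 CPM at 24 h. Twist1 had 0.43 to 1.06 and then 0.48 to 3.00 CPM, and Zeb2 had 0.24 to 1.24 and then 0.41 to 2.17 CPM. Snai1 and Snai2 were not called.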

How the data were processed

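RNA-seq of polyadenylated RNA (strand-specific libraries, per the labels' protocols) was deposited by the authors as 2 tables over all libraries, 1 of estimated counts and 1 of TPM per transcript. Per the submitters' processing notes the tools were Salmon 1.4.0 and DESeq2 1.30.1 and the build mm10; the annotation and the strand setting are not given in the sources used here. Of 137271 transcripts, 137225 were matched to GENCODE M21 and summed per gene symbol, and estimated counts were rounded. The filter on low counts (filterByExpr) left 19819 genes. A quasi-likelihood fit with TMM scaling, 1 group per line and time and 7 residual degrees of freedom (edgeR 4.0.16, R 4.3.3) gave all contrasts, with Benjamini-Hochberg adjustment over all genes tested. It was tested on simulated data. Alternatives were DESeq2 1.42.0, other scaling, no filter, library set as a term, the first set alone, a replicate block, each library left out and, chosen after seeing the data, both low-transgene libraries left out. Intervals on counts cover counting error only. The members and lists were chosen with earlier results of these data known. All 35 members are named, and of each wider list the 2 genes with the smallest adjusted p in the average change, except 1 that is not reported here.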

Additional observations from a re-analysis of the deposited data

Results flagged for a closer look

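Grhl2 is the gene of the list whose change from 0 h to 24 h differed among the 5 lines by the F test of that difference (edgeR, adjusted p = 0.0135). Its fitted log2 change was 0.42 in iFoxA1 and 1.57 to 2.79 in the other lines. Leaving out 1 library gave adjusted p values of 0.00271 to 0.113.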

How the results depend on the processing

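Counts of the 35 genes are given in the order average change (higher, lower), change within iFoxA1, iFoxC1, iFoxG1, iFoxL2 and iFoxP3, difference among lines at 0 h, at 24 h and among changes, each line in that order against the 4 others, and library sets. The main counts were 28, 2, 14, 7, 8, 9, 9, 0, 9, 1, 9, 3, 2, 2, 1 and 4. Leaving out 1 library gave 22 to 29, 1 to 2, 5 to 18, 4 to 12, 4 to 14, 4 to 17, 4 to 14, 0 to 3, 5 to 17, 0 to 4, 5 to 16, 0 to 8, 0 to 4, 0 to 8, 0 to 3 and 4 to 5. The fall count was 1 without either iFoxA1 0 h library, the 0 h library of iFoxC1 or iFoxG1, or replicate 1 at 24 h of iFoxC1, iFoxG1 or iFoxP3. Counts that moved by more than 1.5 times follow. With no filter there were 1 lower on average, 4 within iFoxC1, 5 within iFoxL2, 1 for iFoxL2 and 0 for iFoxP3 against the others. DESeq2 gave 12 within iFoxC1, 5 among lines at 0 h, 16 at 24 h, 3 among changes, and 14, 8, 7 and 2 for iFoxA1, iFoxC1, iFoxL2 and iFoxP3 against the others. Library set as a term gave 13 within iFoxC1, 13 within iFoxG1, 3 at 0 h, 18 at 24 h, 3 among changes, and 14, 7, 4, 6 and 2 for the lines against the others. The first library set alone, whose spread comes only from the iFoxA1 replicate pairs, gave 29, 25, 27, 29 and 26 within lines, 30 at 0 h, 33 at 24 h, 27 among changes, and 29, 18, 17, 25 and 10 against the others. Without the 2 low-transgene libraries, chosen after seeing the data, there were 22, 27, 23 and 24 within iFoxC1, iFoxG1, iFoxL2 and iFoxP3, 17 at 0 h, 31 at 24 h, 18 among changes, 25, 14, 15, 18 and 6 against the others, and 12 between library sets.

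Deviations of libraries from the mean of their line and time were correlated to look for pairing by replicate number. At 24 h iFoxA1 replicate 2, in the first set, had correlations of -0.511 to -0.567 with replicate 2 of the other lines, in the second set. Among those other lines, same-numbered 24 h libraries, which share a library set, had correlations of 0.553 to 0.757. With 2 libraries per group the deviations mirror each other, so pairing by number cannot be told apart from library set. With a replicate block there were 28 higher on average, 15 within iFoxC1, 14 within iFoxG1, 3 at 0 h, 20 at 24 h, 4 among changes, and 18, 8, 6, 8 and 3 against the others. The average change of Tjp3, 0.05, turned to -0.24 with library set as a term, -0.20 in the first set alone, -0.19 with the replicate block and -0.19 without both low-transgene libraries. Leaving out 1 library gave -0.106 (iFoxA1 24 h replicate 3) to 0.244 (iFoxC1 0 h replicate 1), with -0.105 when the 0 h library of iFoxL2 was omitted and -0.0428 when its 24 h replicate 2 was; the cause was not tested. Of 864 values for single genes under the alternatives, 762 kept direction and call, 83 lost the call, 12 gained it and 7 reversed. A line's change without its only 0 h library gives no value. Depth limits Cldn10 most, with 0 or 1 count in each 0 h library.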
